A study of Macaca mulatta with 22 samples.

Results

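The genes described here encode RNA helicases, splicing and other RNA-binding proteins, translation initiation factors with some of their regulators, and parts of the CCR4-NOT deadenylase, whose own transcripts carried N6-methyladenosine (m6A) peaks in infant prefrontal cortex of the rhesus macaque (Macaca mulatta). They were chosen by gene symbol alone: a gene with a peak in at least 1 animal and a symbol beginning with DDX, DHX, SRSF, SRRM, RBM, SF3, PRPF, SNRNP, U2AF, LUC7L, EIF or CNOT, with RBM15 left out. The rule found 72 genes of the 3653 with a peak, with 199 of the 10069 peaks. m6A-seq pulls down RNA fragments with an antibody against m6A, sequences them and reports enriched stretches as peaks, so a gene is either in an animal's peak list or not. The question addressed is whether the set of m6A-marked transcripts differs in infants that went through repeated sevoflurane anaesthesia.

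The sevoflurane group held 5 animals, the males D and S1 and the females F, S2 and S3. Sevoflurane is an inhaled general anaesthetic, and these animals breathed it at about 2.5 to 3% in 3 sessions of 4 h, near postnatal days 7, 21 and 35. The control group held 6 animals, the males A and B and the females C, C1, C2 and C3. The sources used here do not say how controls were handled, or how long after the last anaesthesia tissue was taken. The labels give postnatal day 35 as the age of all 11 animals, and no genetic alteration in either group. Tissue was whole prefrontal cortex, so values average over its cell types. The enrichment and the p-value printed for a peak are the authors' own, and the enrichment orders peaks only within a list. RNA levels were not analysed here and read totals do not accompany the peaks, so a peak found in some animals and not in others need not be a change in methylation, and the depth behind each list is unknown.

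m6A is deposited on nascent mRNA by a methyltransferase complex and is read by proteins that alter splicing, export, translation and decay of the marked transcript. DEAD-box (DDX) and DEAH-box (DHX) proteins use ATP to remodel RNA and RNA-protein complexes. SR proteins and small nuclear ribonucleoproteins choose and cut out introns, eukaryotic initiation factors (EIF) load ribosomes on mRNA, and the CCR4-NOT complex (CNOT) shortens poly(A) tails. Methylated transcripts of such genes are RNAs for the machinery that itself handles mRNA.

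On average more of the 72 genes had a peak after sevoflurane, alongside longer peak lists, and no test was made of this count. A peak in these genes was present in 18 genes in D, 24 in F, 13 in S1, 22 in S2 and 30 in S3, against 6 in the lowest control, a median of 11 and 32 in the highest control. The mean was 21.4 ± 6.39 genes in sevoflurane animals and 13.3 ± 9.42 in controls (SD, n = 5 and 6), a ratio of 1.61. The groups overlapped because control C3, with 32 genes, lay above every sevoflurane animal. Without C3 the control mean was 9.6 ± 2.51 and the ratio 2.23, and then every sevoflurane animal lay above every control, with 13 genes in S1 beside 12 in C2.

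Lists of all genes were longer too. Sevoflurane animals had a peak in 1041 ± 221 genes and controls in 598 ± 235 (SD, n = 5 and 6), and C3 again lay among the sevoflurane animals with 1046. Without C3 the control mean was 509 ± 94.3 genes and the ratio 2.05. Every sevoflurane animal then lay above every control for all genes too, with 732 genes in S1 beside 641 in C2. As a share of the genes with a peak, the 72 genes made up 2.05 ± 0.452% in sevoflurane animals and 2.07 ± 0.538% in controls. The difference of -0.0126 percentage points was far smaller than the spread within either group. Among animals with single-letter names the mean was 21 genes after sevoflurane (D and F) and 10 in controls (A, B and C). Among animals with numbered names it was 21.7 after sevoflurane and 16.7 in controls. In males it was 15.5 and 11, and in females 25.3 and 14.5, sevoflurane before control in each. When every list was cut to its 452 peaks of lowest p-value, the length of the shortest list, 10 ± 2.92 genes remained in sevoflurane animals and 8.83 ± 3.82 in controls. Fewer cells of a type and less RNA per cell cannot be told apart in whole tissue, and neither was measured here.

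**Figure D1:**
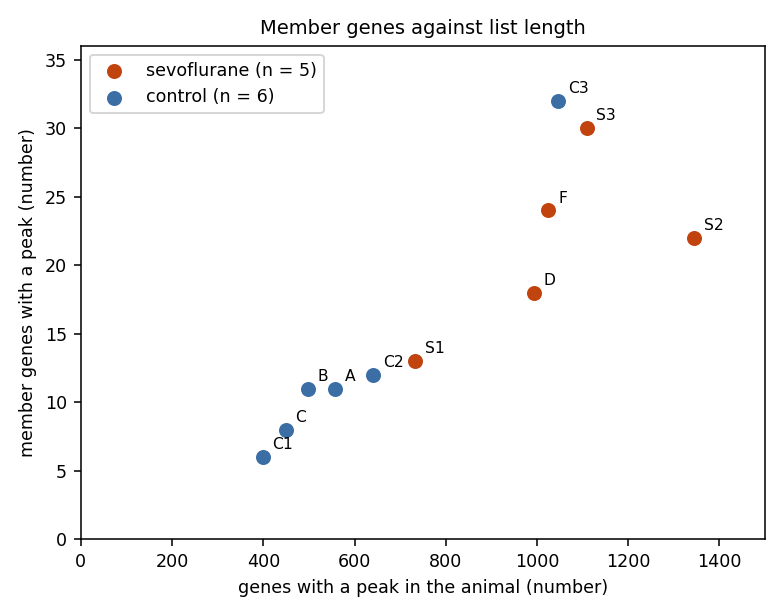
Each point is an animal: the number of the 72 genes with a peak (vertical axis) against the number of all genes with a peak (horizontal axis), with sevoflurane animals in orange and controls in blue. Sevoflurane animals lie between 13 and 30 of the 72 genes and controls between 6 and 12 except C3 at 32, and animals with longer gene lists lie higher, S2 least so.

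Most of the 72 genes were seen rarely. A peak was found in only 1 animal for 38 of them (52.8%), against 55.8% of all genes, and in all 11 animals for 3 of them (4.17%), against 2.22% of all genes. Counting presence in either group, 23 genes (31.9%) had a peak only in sevoflurane animals, against 45% of all genes. Another 20 (27.8%) had one only in controls, against 22.7%, and 29 (40.3%) in both groups, against 32.3%. Of the 20 found only in controls, 10 came from C3 alone.

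Genes present in 2 to 9 animals were compared between groups with a two-sided Fisher's exact test, with Benjamini-Hochberg adjustment over all 1482 genes tested. Of the 72 genes, 31 qualified. A larger share of sevoflurane than of control animals had the peak in 28 of the 31 (90.3%), against 83.2% of all genes tested, and the median difference was 23.3 percentage points both for these genes and for all genes. The 3 with the larger share in controls were SRRM1, EIF3A and EIF3C, and 16.8% of all genes tested went that way. At an unadjusted p under 0.05, 1 of the 31 was more frequent after sevoflurane (3.23%), against 1.82% of all genes tested, and 0 were more frequent in controls, as for all genes. By this Fisher's exact test none passed after adjustment, where the smallest adjusted p of any gene was 0.606. Complete separation of 5 animals from 6 would give an unadjusted exact p of 0.00216. The lowest Fisher's exact p within reach was 0.182 for a gene found in 2 animals and 0.0606 for one found in 3. Such genes could not pass, whatever their pattern. Of the 31, 11 were found in 2 animals and 7 in 3, as were 639 and 304 of all 1482 genes tested. On lists of equal length, 15 of the genes could be tested, and 10 of them (66.7%) had the larger share after sevoflurane, against 63.9% of all genes.

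**Figure D2:**
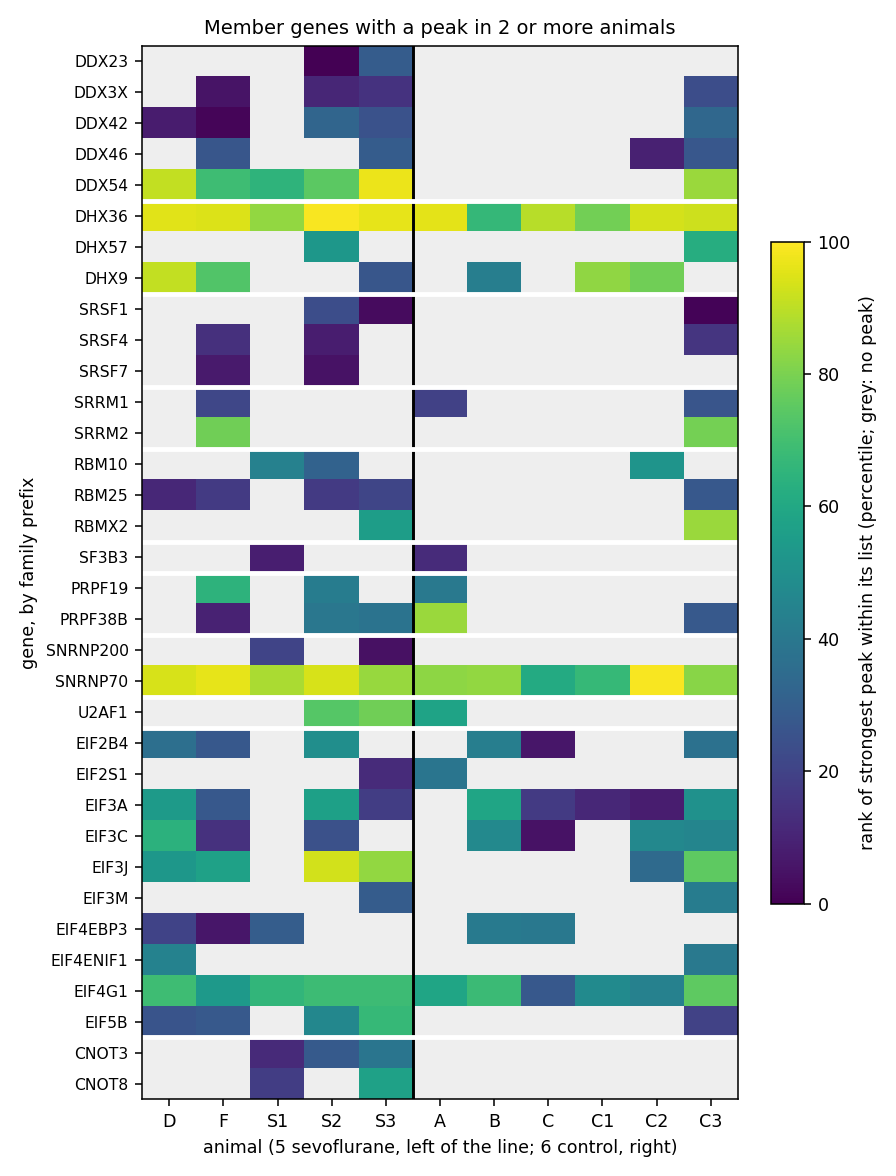
Genes of the set with a peak in 2 or more animals (rows, by family) in each animal (columns, sevoflurane to the left of the line and control to the right). Colour gives the percentile of the strongest peak's enrichment within that animal's list, and grey marks no peak. DHX36, SNRNP70 and EIF4G1 are filled in all 11 columns, and DDX54 in the 5 sevoflurane columns and C3.

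DDX54, the gene with the lowest p, encodes a nucleolar DEAD-box helicase with a role in ribosome biogenesis that also binds nuclear receptors. Its peak was listed in D, F, S1, S2 and S3, and among controls only in C3. Presence in 5 of 5 sevoflurane and 1 of 6 control animals gave an unadjusted Fisher's exact p of 0.0152 and an adjusted p of 0.606. All 6 peaks overlapped in 1 region of chromosome 11, from 113190560 to 113193094 on the minus strand (rheMac8 assembly; coordinates below are of this assembly). The region held 3 or 4 exonic blocks, that is, stretches of exon separated by introns, and the peaks covered 151 to 451 exonic bases. Their midpoints lay between 74.3 and 76.8% of the annotated gene's length, counted from its 5′ end with introns included.

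The authors' enrichment of the DDX54 peak was 33 in D, 12.5 in F, 8.97 in S1, 12.2 in S2 and 59.4 in S3, and 19.6 in C3. Within its own list each of these peaks was above the middle, between the 65.1st and 97.2nd percentile of enrichment. The 6 animals with the peak were those with the 6 longest lists, as was the case for 4 of the 92 genes found in 6 animals. With lists of equal length the peak was kept in D, S1, S2 and S3 and in no control (Fisher's exact p = 0.0152), the peaks of F and C3 having fallen below the limit. The C3 peak was lost narrowly, with an authors' p-value of 2.6e-07 where the largest kept in C3 was 2.2e-07. In S1 the peak had 2.1e-07, where the largest kept was 3.4e-06. Presence in 4 of 5 sevoflurane and 1 of 6 control animals, as for DDX42, gives a Fisher's exact p of 0.0801. Leaving out C3 gave 5 of 5 sevoflurane and 0 of 5 control animals (Fisher's exact p = 0.00794), and leaving out any other animal gave p = 0.0476 by the same exact test. In males alone the peak was in 2 of 2 sevoflurane and 0 of 2 control animals (exact p = 0.333, the smallest possible). In females alone it was in 3 of 3 sevoflurane and 1 of 4 control animals (exact p = 0.143). Among single-letter animals it was in 2 of 2 sevoflurane and 0 of 3 control animals (exact p = 0.1, the smallest possible), and among numbered ones in 3 of 3 and 1 of 3 (exact p = 0.4).

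None of the other DEAD-box genes passed the test. The family had 9 genes with a peak, and the number per animal was 3 in D, 4 in F, 1 in S1, 4 in S2 and 7 in S3, against 0 in the lowest control, a median of 0.5 and 4 in the highest, C3. All 5 that could be tested, DDX54 included, had the larger share after sevoflurane, as did 83.2% of all genes tested. DDX42, a helicase that associates with the U2 small nuclear ribonucleoprotein, had a peak in D, F, S2 and S3, and among controls in C3 (Fisher's exact p = 0.0801). In D, F, S2 and C3 it lay on chromosome 16 from 57426932 to 57427352 on the plus strand, at 97.4 to 97.6% of the gene, while that of S3 lay near its middle at 53.1%. The enrichments were low, between 2.33 and 3.85.

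DDX3X, an X-linked helicase that acts in translation initiation and is mutated in a human neurodevelopmental disorder, had a peak in F, S2 and S3, and in C3 (Fisher's exact p = 0.242). All 4 are females, and they are also the 4 animals with the longest lists, as was the case for 4 of the 151 genes found in 4 animals. Its commonest region lay on chromosome X from 41281147 to 41281629 on the plus strand and was found in F, S2 and C3. DDX46, the counterpart of a yeast helicase of prespliceosome assembly, had the same 2-block region on chromosome 6 (132491975 to 132496914, plus strand) in F and S3 and in C2 and C3 (Fisher's exact p = 1). DDX23, a helicase of the U5 small nuclear ribonucleoprotein, had overlapping peaks in S2 and S3 and in no control (Fisher's exact p = 0.182). DDX1, DDX17, DDX41 and DDX6 each had a peak in 1 animal, the first 3 after sevoflurane and DDX6, a factor of translational repression and decapping, in control A.

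DHX36, a DEAH-box helicase that unwinds G-quadruplexes in RNA and DNA, was marked in every animal at the start of its gene. The enrichment was 46.2 in D, 40.8 in F, 26.9 in S1, 89.4 in S2 and 52.4 in S3, and in controls 12.1 in the lowest, a median of 29.4 and 54.4 in the highest. These peaks ranked high in their lists, between the 66.7th and 99.2nd percentile, with a median at the 93.6th. All 11 overlapped in the region of chromosome 2 from 141325880 to 141334414 (minus strand), with midpoints within the first 8.42% of the gene. In D, F and S2 and in B, C, C2 and C3 the peak ran from one exonic block into the next, and in S1 and S3 and in A and C1 it stayed in 1 block.

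DHX9, the nuclear helicase also called RNA helicase A, had a peak in D, F and S3 and in B, C1 and C2 (Fisher's exact p = 1). In 5 of these animals, all but S3, it lay at the 3′ end of the gene, at 98.6 to 98.9% of its length, on chromosome 1 from 184482393 to 184482692 (minus strand). The enrichment there was 33 in D and 14.8 in F, and 6.06 in B, 19.3 in C1 and 20.8 in C2. DHX57 had peaks in S2 and C3 in different stretches, and DHX15, a helicase of spliceosome disassembly, in S1 alone.

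SNRNP70, a protein of the U1 small nuclear ribonucleoprotein that recognises 5′ splice sites, was the spliceosomal gene marked in every animal. The enrichment was 40.0 in D, 47.7 in F, 34.7 in S1, 34.6 in S2 and 23.1 in S3, and in controls 9.66 in the lowest, a median of 23.8 and 62.4 in the highest. The 11 peaks lay in 1 exonic block of 270 to 538 bases on chromosome 19 from 44504617 to 44505154 (plus strand), between 86.9 and 87.4% of the gene. Their percentile within the list ran from 61.3 in C to 99.0 in C2.

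**Figure D3:**
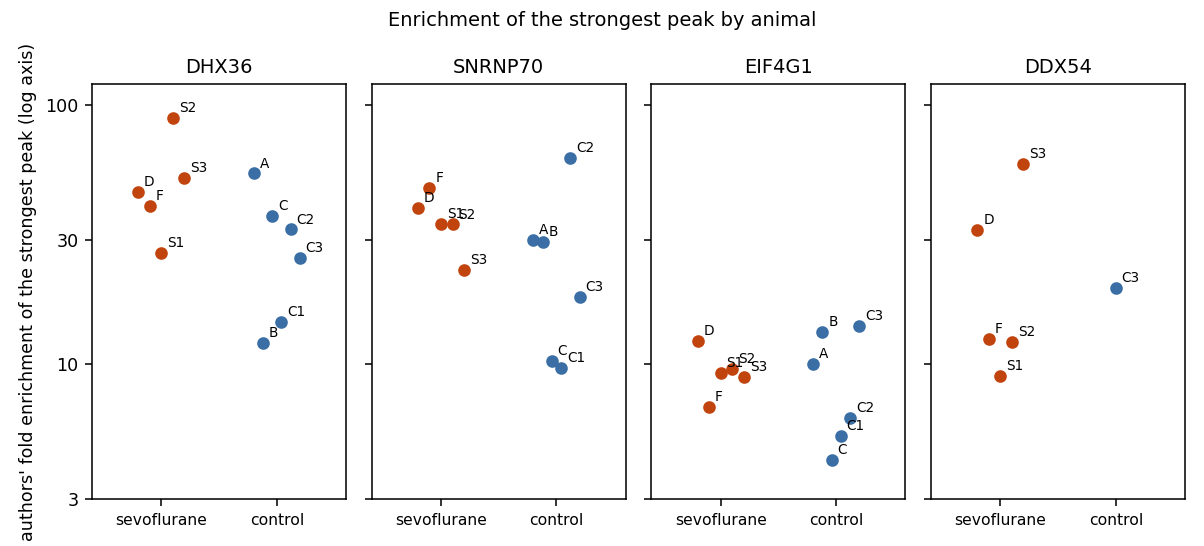
The authors' enrichment (log axis) of the strongest peak in each animal, by gene, with sevoflurane points to the left of control points. The values of DHX36 and SNRNP70 lie between 9.66 and 89.4 and those of EIF4G1 between 4.28 and 14, and DDX54 has a point for each sevoflurane animal and for C3. Enrichment orders peaks within a list, so heights of different animals are shown side by side without a comparison.

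Core spliceosome genes were otherwise sparse, and none of them passed the test, which genes found in 2 or 3 animals could not pass. SNRNP200, the helicase that unwinds U4 from U6 small nuclear RNA, had peaks in S1 and S3 and in no control (Fisher's exact p = 0.182), but in 2 separate regions. SNRNP35, a protein of the minor spliceosome, was found in F alone, with an enrichment of 20.4. U2AF1, which binds the AG at the 3′ end of introns, had the same region near the end of the gene (chromosome 3, 3593487 to 3593667, plus strand) in S2 and S3 and in control A (Fisher's exact p = 0.545). The SF3 genes, subunits of the U2 particle, were found in 0.4 ± 0.894 genes per sevoflurane animal and 0.667 ± 0.816 per control (SD, n = 5 and 6). SF3B3 had overlapping peaks in S1 and in A, SF3B4 a peak in S1, SF3A1 and SF3A3 one each in B, and SF3B6 one in C3.

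The PRPF genes, named after yeast pre-mRNA processing mutants, numbered 1 ± 1 per sevoflurane animal and 1.33 ± 1.37 per control (SD, n = 5 and 6). PRPF38B had a peak in F, S2 and S3 and in A and C3 (Fisher's exact p = 0.567), and those of F, S2, S3 and C3 shared the region of chromosome 1 from 109661170 to 109661973 (plus strand). PRPF19, a ubiquitin ligase needed to activate the spliceosome, had 1 region on chromosome 14 (13392351 to 13392559, plus strand) in F and S2 and in A (Fisher's exact p = 0.545). The other 5 genes of this family, among them PRPF3, a protein of the U4/U6 particle, and PRPF8, the central scaffold of the spliceosome, each had a peak in 1 control and in no sevoflurane animal. Over all genes with a peak, 22.7% had one only in controls. The peaks of PRPF8 and PRPF31 were in C3, and that of PRPF39, in A, was annotated to another gene. LUC7L, a partner of the U1 particle, had its 2 peaks in C3.

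SR proteins, which bind exonic enhancers through RNA-recognition motifs and recruit spliceosome subunits, had peaks in 5 genes. They were present in 2 genes in F, 3 in S2 and 1 in S3, and in 0 in D and S1, and C3 with 4 was the only control with any. Of these 4, SRSF5 is called SUSD6 in the peak tables and by RefSeq, so its name is uncertain. SRSF1 had a peak in S2, S3 and C3 and SRSF4 in F, S2 and C3 (Fisher's exact p = 0.545 for each). SRSF7 had overlapping peaks on chromosome 13 (39227600 to 39228780, minus strand) in F and S2 and in no control (Fisher's exact p = 0.182). Their enrichments were near the lower limit of the lists, from 2.19 for SRSF1 in C3 to 3.3 for SRSF1 in S2. All SRSF4 peaks fell within the region of chromosome 1 from 28136943 to 28137149 (minus strand), at 97.4 to 97.6% of the gene.

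Among SR-related matrix proteins, SRRM1 had a peak in F and in A and C3 (Fisher's exact p = 1), and SRRM2 in F and in C3. The SRRM2 peaks lay far apart, at 11.5% of the gene in F and at 98.8% in C3. SRRM3, which promotes inclusion of neuronal microexons, was found in F alone.

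RBM25, a regulator of alternative splicing, was the RBM gene found most often. It had a peak in D, F, S2 and S3, and among controls in C3 (Fisher's exact p = 0.0801). These are the 5 animals with the longest lists, a set that it shared exactly with DDX42 and EIF5B, and that 12 of the 113 genes found in 5 animals had. On lists of equal length the peaks of RBM25 and of DDX42 remained in all 5 animals. The authors' p-values for RBM25 were between 1.3e-20 and 2e-35. The largest p-value kept on those lists ran from 2.8e-10 in S2 to 0.00012 in C1, and the part of sequencing depth was not tested. Enrichment of the RBM25 peak was low in each, at 2.74 in D, 3.17 in F, 2.95 in S2 and 3.11 in S3, and 3.39 in C3. The RBM25 region ran on chromosome 7 from 135467930 to 135474221 (plus strand), over 2 or 3 exonic blocks.

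RBM10, an X-linked splicing factor, had a peak in S1 and S2 and in C2 (Fisher's exact p = 0.545). A region at the 3′ end of the gene, on chromosome X from 47339531 to 47340133 (plus strand), was found in S1 and S2 and in no control. RBMX2 had a peak in S3 and in C3, and the other 8 RBM genes in 1 animal each, RBM14, a transcriptional coactivator, among them in S3. The RBM14 peak was annotated to another gene. The family counted 2.40 ± 1.52 genes per sevoflurane animal and 1 ± 1.26 per control (SD, n = 5 and 6), and 0.6 per control without C3.

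EIF4G1, the scaffold that joins the cap-binding protein to the ribosomal subunit, was the initiation factor marked in every animal. The enrichment of its strongest peak was 12.3 in D, 6.81 in F, 9.24 in S1, 9.58 in S2 and 8.95 in S3, and in controls 4.28 in the lowest, a median of 8.10 and 14 in the highest. All 11 overlapped on chromosome 2 from 108718419 to 108719175 (minus strand). A further EIF4G1 region, from 108711400 to 108711549, was listed in S1 and S2 and in no control (Fisher's exact p = 0.182). The deposited annotation column assigned all 13 peaks to EIF2B5, although they were called in EIF4G1, so their position in the gene is not given.

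Genes with the EIF prefix were the most numerous, with 18, among them the kinase EIF2AK4 and the EIF4E-binding proteins EIF4EBP2, EIF4EBP3 and EIF4ENIF1. They numbered 8 in D, 8 in F, 2 in S1, 6 in S2 and 9 in S3, against 2 in the lowest control, a median of 4.5 and 11 in the highest, C3. Of the 9 that could be tested, 7 had the larger share after sevoflurane and 2 in controls, against 83.2% and 16.8% of all genes tested, and none passed the test.

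Among subunits of EIF3, the complex that bridges mRNA and the small ribosomal subunit, EIF3J, EIF3A and EIF3C recurred. EIF3J had a peak in D, F, S2 and S3 and in C2 and C3 (Fisher's exact p = 0.242). All 6 peaks began at the same base of chromosome 7 (region 20918238 to 20931882, plus strand) and ran over 6 exonic blocks in D, F, S2, S3 and C3, and over 4 in C2. Its enrichment was 6.75 in D, 7.56 in F, 33 in S2 and 18.3 in S3, and 5.13 in C2 and 14 in C3.

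EIF3A had a peak in D, F, S2 and S3 and in every control but A (Fisher's exact p = 1). In D, F and S2 and in C, C1, C2 and C3 it lay in the region of chromosome 9 from 114983331 to 114983809 (minus strand), while the peaks of S3 and B lay near the 5′ end, at 2.40 and 8.13% of the gene. EIF3C had 1 region on chromosome 20 (27755475 to 27755838, plus strand) in D, F and S2 and in B, C, C2 and C3 (Fisher's exact p = 1). The peak tables call this gene LOC705696.

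EIF5B, the GTPase that joins the ribosomal subunits, had a peak in D, F, S2 and S3 and in C3 (Fisher's exact p = 0.0801). Its 9 peaks fell in 6 regions, the commonest on chromosome 13 from 94605276 to 94627389 (plus strand) in F and S2 and in C3. The gene-level count thus joins peaks at different places, and on lists of equal length only those of S3 and C3 remained. EIF2B4, a subunit of the exchange factor that recharges EIF2 and a gene of vanishing white matter disease in humans, had 1 region in D, F and S2 and in B, C and C3 (chromosome 13, 27665856 to 27666370, minus strand; Fisher's exact p = 1). A locus that the table of gene names calls EIF4EBP3, a repressor of cap-dependent translation, had peaks in D, F and S1 and in B and C (Fisher's exact p = 0.567). RefSeq names the gene of the same number ANKHD1, so the name of that locus is uncertain.

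CNOT genes had a peak in 3 genes in S1, 1 in S2 and 3 in S3, in 0 in D and F, and in 1 gene in 1 control, C2. CNOT3, a regulatory subunit of the deadenylase complex, was listed in S1, S2 and S3 and in no control (Fisher's exact p = 0.0606). The shared stretch lay on chromosome 19 from 49487018 to 49488535 (plus strand), at 29.1 to 32.0% of the gene, and its enrichment was 3.15 in S1, 2.70 in S2 and 4.05 in S3. CNOT8, a catalytic deadenylase, had peaks in S1 and S3 and in no control (Fisher's exact p = 0.182), in 2 regions. CNOT6L, another deadenylase, was found in S3 alone, by a peak annotated to another gene, and CNOT1, the scaffold, in C2 alone. All 3 animals with a CNOT3 peak have numbered names, and the numbered controls had none of it.

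CNOT3, CNOT8, DDX23, SNRNP200 and SRSF7 were the genes present in 2 or more sevoflurane animals and in no control. These 5 are 16.1% of the 31 tested, against 23.7% of all genes tested. None of the 31 had the opposite pattern, which 5.6% of all genes tested showed.

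Every animal but S2, which had the longest list, held genes of the set that no other animal had, from 1 in C and C1 to 10 in C3. In C3, 22 of its 32 genes were in no other control. Of these, 12 (37.5% of the 32) were in a sevoflurane animal, against 22.1% of the other genes of C3, and 10 (31.3%) were in no other animal, against 24.0%. S3 alone held 8 genes (26.7% of its 30, against 33.5% of its other genes), among them the helicases DDX1 and DDX17 and the translation factors EIF2S2, EIF5 and EIF5A.

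Where a gene recurred, the stretch usually recurred too. Of the 34 genes with a peak in 2 or more animals, 29 (85.3%) had at least 1 region shared by 2 animals, against 73.9% of 1580 other genes. A region common to all animals with that gene existed for 20 of them (58.8%), against 53.2%. In all, the 199 peaks joined into 98 regions, of which 29 were in 2 to 9 animals. The DDX54 region was the only one of the 29 with an unadjusted Fisher's exact p under 0.05 (adjusted p = 0.610), against 1.5% of all 1265 regions tested.

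On the full lists, position within the gene resembled that of other transcripts. Of these genes' peaks, 39.8 ± 2.65% in sevoflurane animals and 44.1 ± 17.6% in controls had their midpoint in the last 20% of the gene (SD, n = 5 and 6). For all other genes the shares were 38.8% in sevoflurane animals and 37.9% in controls. The first 20% held 16.9 ± 9.77% of these genes' peaks after sevoflurane and 27.5 ± 9.34% in controls, against 23.8% and 23.2% for other genes. The 2 groups overlapped in both shares, and 26 of the 199 peaks had no position. On lists of equal length the mean share in the last 20% was 32.6% after sevoflurane and 47.3% in controls, a difference that was not tested.

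**Figure D4:**
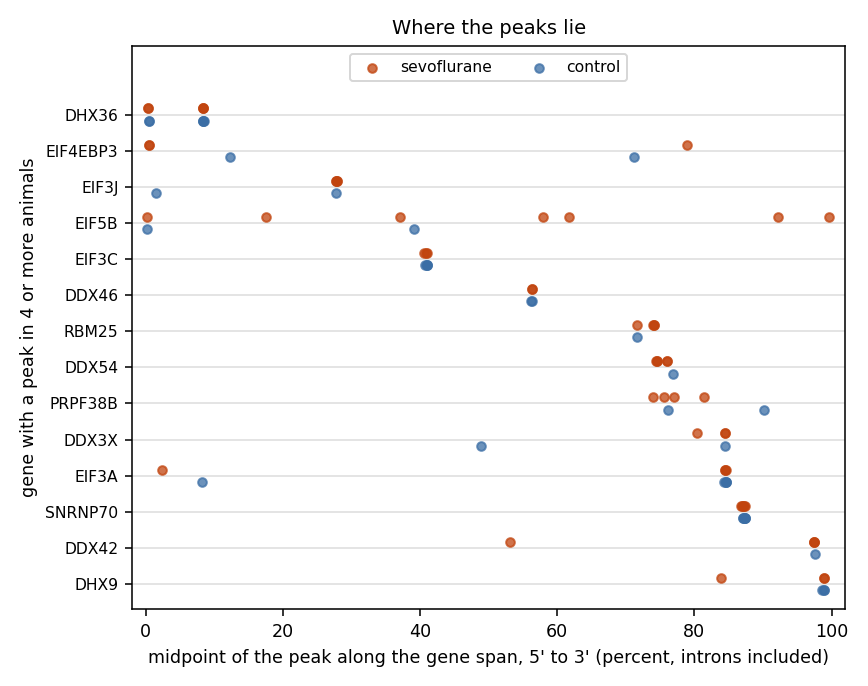
Position of the peak midpoint, as a percentage of the annotated gene from its 5′ end, for genes with a peak in 4 or more animals, with sevoflurane points above control points in each row. EIF4G1 and EIF2B4, whose peaks have no position, are not drawn. DHX36 sits at the 5′ end, DDX54 and RBM25 between 71.6 and 76.8% of the gene, and SNRNP70, DHX9 and DDX42 towards the 3′ end. In these genes the groups are close to each other apart from the S3 peaks of DDX42 and DHX9. Peaks of EIF5B, EIF4EBP3, DDX3X, EIF3A and PRPF38B fall in separate regions of the gene.

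Peaks of these genes crossed exon junctions more often than other peaks. More than 1 exonic block was present in 57.1 ± 7.29% of them in sevoflurane animals and 53.6 ± 20.4% in controls (SD, n = 5 and 6), against 36.7 ± 2.83% and 31.4 ± 8.50% of other genes' peaks. The share was higher than that of other genes in 11 of 11 animals, by 21.4 ± 9.29 percentage points on average, from 0.523 in C1 to 34.1 in C3. The comparison was chosen after seeing the data and was not tested. The annotated transcripts differ as well: their median number of exons was 18 for these peaks and 12 for other peaks. Among peaks in transcripts of 10 or more exons the share was 63.6% and 51.8%, and the mean difference was 10.2 ± 11.2 percentage points, with these genes above the others in 8 of 11 animals.

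**Figure D5:**
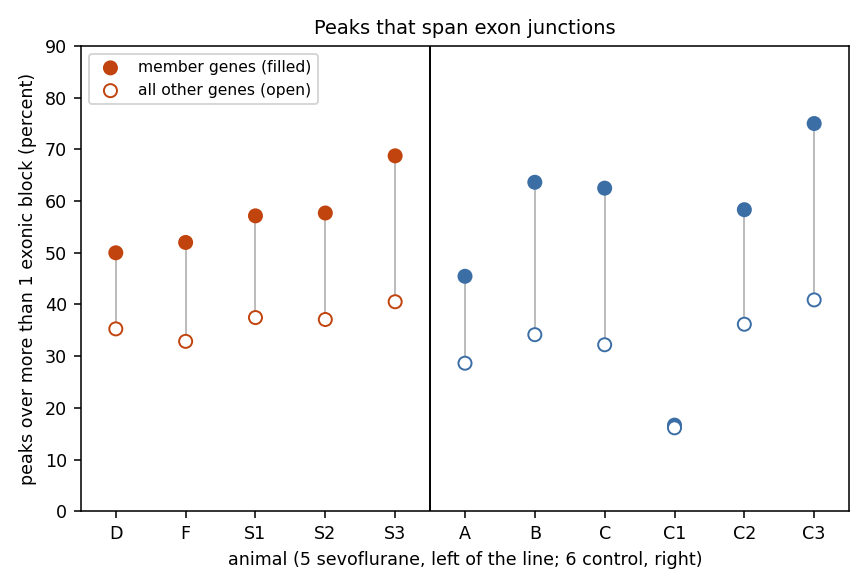
The percentage of peaks that cover more than 1 exonic block in each animal, for the 72 genes and for all other genes, sevoflurane animals to the left of controls. The 72 genes lie above the others in all 11 animals, by 0.523 percentage points in C1 and 34.1 in C3.

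Enrichment of these genes' peaks was mostly below the middle of the list. The median percentile was 33.8 ± 11.5 in sevoflurane animals and 42.3 ± 10.9 in controls (SD, n = 5 and 6), against 50.2 and 50.5 for the peaks of other genes. It was below that of other genes in 8 of 11 animals.

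Genes of the same pathways outside the named families were read from lists. Of 96 further splicing factors and regulators, 46 had a peak and 21 could be tested. Of these, 14 (66.7%) had the larger share after sevoflurane and 7 in controls, against 83.2% and 16.8% of all genes tested. Their median difference was 3.33 percentage points against 23.3 for all genes tested. CACTIN, a spliceosome component, was found in 3 sevoflurane animals and 0 controls (Fisher's exact p = 0.0606), and TRA2B, an SR-like splicing activator, in 2 and 0 (Fisher's exact p = 0.182). ELAVL3, a neuronal RNA-binding protein, was found in 3 sevoflurane animals and 1 control (Fisher's exact p = 0.242), and CLK4, a kinase of SR proteins, in 2 and 0 (Fisher's exact p = 0.182).

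Of 46 genes for translation elongation, termination, poly(A) binding and translational control, 16 had a peak. The larger share was after sevoflurane in 6 of the 8 tested (75%), against 83.2% of all genes tested, with a median difference of 3.33 percentage points. RPTOR, the mTORC1 subunit, was found in 3 sevoflurane animals and 1 control (Fisher's exact p = 0.242), and ABCF1 in 2 and 0 (Fisher's exact p = 0.182). In the other direction, LARP4 was found in 0 sevoflurane animals and 2 controls (Fisher's exact p = 0.455). GIGYF1 was found in 3 and 5 (Fisher's exact p = 0.545). Of 69 genes for deadenylation, decapping, decay and silencing, 20 had a peak, and all 6 tested had the larger share after sevoflurane. This was so for 83.2% of all genes tested. The median difference was 30 percentage points, against 23.3 for all genes tested. LSM14A, a P-body protein, was found in 3 sevoflurane animals and 0 controls (Fisher's exact p = 0.0606). None of the tested genes in these 3 lists passed the unadjusted threshold by Fisher's exact test in either direction. Those found in 2 or 3 animals could not pass it.

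The tissue was checked by peaks in marker transcripts, which are not levels. Of 12 neuronal markers 5 had a peak. NEFM had one in 5 sevoflurane animals and 6 controls, RBFOX3 in 3 and 4, CAMK2A in 2 and 2, NEFL in 1 and 0, and SYT1 in 0 and 2. SNAP25, MAP2, SLC17A7, GAD1, GAD2, STMN2 and ENO2 had none. Of 7 astrocyte markers, GJA1 had a peak in 1 sevoflurane animal and 0 controls and SLC1A3 in 0 and 1. Of 6 oligodendrocyte markers, CNP had one in 3 and 3 and MBP in 1 and 0, and of 6 microglial markers CX3CR1 had one in 0 and 1. Of 4 markers of oligodendrocyte precursors, PDGFRA had a peak in 3 sevoflurane animals and 0 controls (Fisher's exact p = 0.0606) and OLIG2 in 1 and 0, while OLIG1 and CSPG4 had none. Presence in 2 or more sevoflurane animals and 0 controls was found for 23.7% of all genes tested. The number of precursor markers with a peak was 0 to 2 in sevoflurane animals and 0 in every control, and its part in the results above was not tested. None of 7 markers of endothelium and blood had a peak.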

How the data were processed

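Each of the 11 immunoprecipitated libraries has 1 deposited table of annotated peaks. Per the file headers, a row gives a peak's position, exonic blocks, gene, p-value, log10 p-value and log10 false discovery rate (negative scores), and fold enrichment (a ratio), all as the authors computed them. In the files no p-value exceeded 0.001 and no enrichment was below 2.06. Tools listed in the submitters' processing notes are HISAT2 2.1.0, StringTie, Trim Galore 0.5.0 and cutadapt, with rheMac8 as the build. The peak caller is not given in the sources used here. The input libraries were not analysed here. Without read totals, precision rests on the number of animals, which the labels name as separate.

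Peak starts count from 0 in the deposited tables, so 1 was added. A gene was that in which the peak was called. Identifiers were matched to symbols through a table of gene names (69 of the 72) or the peak tables (3). Same-strand peaks of the 11 lists with at least 1 bp of exonic block in common were joined into regions. Fisher's exact tests and adjustment ran over the whole table in Python 3.11.15 with scipy 1.17.1 and pandas 2.3.3. The exact test was also run on a simulated presence table whose changed genes separated the groups almost completely. Smaller differences were not simulated. Counts and shares over the 72 genes were given no test, because these genes and the lists were chosen with earlier results of these data known. Named genes are those with an unadjusted p under 0.05, those in 4 or more animals, those in 2 or more animals of 1 group only, and up to 3 per family whose share of animals differed most. Genes named outside this rule were chosen after their values were seen. The gene that the peak tables alone call RBM12 (1 peak, in 1 control) has another symbol in the table of gene names and was not counted. No sequence is printed, since no genome was used here.

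The alternatives were a p-value of at most 1e-05 per peak, lists of equal length, the gene of the annotation column, autosomes only, each sex, the replicate number as a block, each naming style, no filter on the number of animals, 50% reciprocal overlap for regions, and leaving out each animal. Those for exon junctions were added after seeing the data.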

Additional observations from a re-analysis of the deposited data

Results flagged for a closer look

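Control C3 stood apart from the other 5 controls in the number of the 72 genes with a peak, at 32 against 6 to 12, and in the number of their peaks, at 36. Its distance to the nearest control was 0.769 of the whole control range for genes and 0.80 for peaks, above Dixon's critical value of 0.625 for 6 animals. These 2 measures count the same peaks in different ways. The whole list of C3 was also the longest of the controls, at 1210 peaks against 452 in C1 to 703 in C2, and was not put to this rule. Sevoflurane animal D stood apart from the other 4 in the median percentile of enrichment of these genes' peaks within its list, at 53.9, and its distance of 0.755 of the range exceeded the critical value of 0.71 for 5 animals. In all, 18 groups of values were checked and 3 stood out, while chance alone gives about 1 in 20.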

How the results depend on the processing

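Over all alternatives, values for named genes kept their direction and their side of the threshold in 551 cases, were 0 where the reported difference was not in 127, and were 0 in both in 60. In 8 cases a gene passed newly, in 5 (DDX54) it no longer passed, and in 29 the sign turned. The count of the 72 genes more frequent after sevoflurane (1, DDX54) was 1 with the stricter p-value, equal lists, annotation gene, autosomes and no filter. It was 0 for genes and 0 for regions in males, in females, in each naming style and with the replicate block over the 6 numbered animals. The smallest exact p was 0.333 in males, 0.1 in each naming style and 0.25 with the block, so those settings could not pass. With the block DDX54 had an exact p of 0.5. Same-numbered animals deviated from their group means with correlations of 0.0879, -0.0097 and 0.0408, so the numbers were not taken as pairs. Leaving out 1 animal gave 1 to 4 genes and 1 to 2 regions. Without C3 it gave 4 of the 26 genes tested (DDX42, DDX54, EIF5B and RBM25), against 59 of all 1324 genes tested. The same 4 passed without S1, of 27 tested, against 85 of all 1355. CNOT3 and DDX54 passed without D, 2 of 30 tested, against 55 of all 1340. The same 2 passed without F, of 29 tested, against 56 of all 1334. Over all genes the count was 27, and 10 with the stricter p-value, 4 on equal lists, 24 in females, 0 in males, each naming style and the block, and 31 to 85 with 1 animal left out. The difference for exon junctions was 10.2 points in transcripts of 10 or more exons, against 21.4 in all.

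Differences in the percentage of animals with a peak, sevoflurane minus control, turned sign for genes that had not passed. With the stricter p-value they were 20 for SRRM1, 10 for EIF3A and 10 for EIF3C. On equal lists they were -50 for DHX9, -16.7 for RBM10 and U2AF1, and -13.3 for PRPF38B and EIF2B4. In males they were -50 for PRPF19, PRPF38B and U2AF1, and in females 8.33 for SRRM1. In single-letter animals they were 16.7 for SRRM1, -33.3 for U2AF1, and 33.3 for EIF3A and EIF3C. In numbered animals and with the block they were -33.3 for DDX46, DHX9 and SRRM2. With 1 animal left out, DDX46 was -8.33 without F or S3, SRRM2 -16.7 without F, DHX57 -16.7 without S2, EIF3A -20 to 16.7 (16.7 without S1), and EIF3C -20 to 8.33 (8.33 without S1 or S3). The cause was not tested.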
